A study of Saccharomyces cerevisiae with 4 samples.

Results

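Nucleosome-poor windows of the yeast genome that lie outside the called peaks of histone H3 phosphorylated at threonine 45 (H3T45p) numbered 3658 of 74246 windows of 150 bp. The larger set holds the windows of the 16 nuclear chromosomes that lie 20 kb or more from both ends and have an H3 signal above 0 in both conditions. A window was a member when its H3 signal was under 25% of the nuclear median in hydroxyurea and in untreated cells, and when it overlapped no region of the peak list of either condition. The thresholds were 69.3 in hydroxyurea and 69.9 in untreated cells, on the deposited signal scale. The members' H3 levels and their place outside peaks are therefore given by choice and are described here without reading anything from them.

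The data come from ChIP-seq, the sequencing of DNA recovered with an antibody from crosslinked chromatin, in the laboratory strain BY4741 of Saccharomyces cerevisiae, grown in YPD, a rich medium, to mid-log phase. There were 4 groups of 1 library each: H3T45p and H3 from cells given 200 mM hydroxyurea for 2 h, and H3T45p and H3 from cells with no treatment. The H3T45p antibody and the antibody to the C terminus of H3, which binds whatever the state of threonine 45, were used on chromatin sheared by sonication. The H3T45p library is numbered 1 in hydroxyurea and 2 in untreated cells, as are the H3 libraries, so a batch, if that is what the numbers mean, and the treatment cannot be told apart. No input or mock precipitation is among the 4 libraries analysed here. With 1 library per group no difference between conditions or antibodies has a replicate check, so values are given side by side with no p-value. The intervals given for ratios of reads cover counting error only.

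DNA in a eukaryotic cell is wound around histone octamers, and stretches with few nucleosomes are a regular feature of yeast chromatin, best known upstream of active genes and also at tRNA genes and replication origins. Threonine 45 of H3 lies where the DNA enters and leaves the nucleosome, and in budding yeast it is phosphorylated by Cdc7, a kinase needed to fire replication origins. Hydroxyurea inhibits ribonucleotide reductase and so slows replication forks by starving them of deoxynucleotides. A histone mark can be present only where the histone is, so windows with little H3 are the places where a level of H3T45p and a level per H3 differ most as measures. No source used here gives the build of the deposited coordinates, so windows are named by chromosome and position alone, counted from 1, with no gene assigned.

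Window reads in the hydroxyurea pair came to 23588153 (H3T45p) and 28690293 (H3), and in the untreated pair to 25105783 (H3T45p) and 27319637 (H3). Their nuclear medians were close, at 283 and 277 in hydroxyurea and 289 and 280 in untreated cells. The authors put each library on its scale with 1 factor, so all levels are relative within the genome and not amounts per cell. The peak lists held 630 regions in hydroxyurea and 87 in untreated cells.

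The H3-poor state was largely shared between the conditions. Of 5070 windows with H3 under the threshold in hydroxyurea, 81.0% were also under it in untreated cells, and of 5040 such windows in untreated cells 81.5% were under it in hydroxyurea. The 4106 windows common to both lists include 448 that overlap a called peak, which leaves the 3658 members. A further 40 windows sat at exactly the threshold in untreated H3, 71 reads against a median of 284, and were not counted. The 3 members nearest to the threshold, at 24.8% of the H3 median, had H3T45p signals of 44.4, 55.8 and 36.4 in hydroxyurea and 72.2, 84.8 and 79.95 in untreated cells. The 3 windows just outside, at 25%, had 51.2, 54.6 and 54.6 in hydroxyurea and 55.6, 85.8 and 82.9 in untreated cells.

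The members carried little H3T45p. Their median H3T45p signal was 38.7 in hydroxyurea, with quartiles of 20.5 and 59.2, and 47.8 in untreated cells, with quartiles of 28.3 and 68.3. Their H3 had a median of 38.1 in hydroxyurea, beside 35.4 in untreated cells. In recovered reads the hydroxyurea pair had medians of 34 (H3T45p) and 42 (H3), and the untreated pair 49 (H3T45p) and 36 (H3), so the value of a single window carries a wide counting error. All members together took 0.582% of nuclear reads of H3T45p and 0.525% of H3 in hydroxyurea, and 0.730% of H3T45p and 0.479% of H3 in untreated cells. The share taken from the untreated H3T45p library was the highest of the 4.

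Low H3 went with low H3T45p in most members. The H3T45p signal was under 25% of its own nuclear median in 3106 members (84.9%) in hydroxyurea, against 6.43% of all windows tested, and in 2876 members (78.6%) in untreated cells, against 4.74%. It reached 50% of that median in 30 members in hydroxyurea and in 6 in untreated cells, and no member reached the median in either. The rule left out windows in called H3T45p peaks, so these shares and the upper limit are in part given by the choice of members. The 448 H3-poor windows in peaks had a median H3T45p signal of 188 in hydroxyurea and reached 1229. H3T45p was at 0 in 46 members in hydroxyurea and in 16 in untreated cells. A count of 0 in a window allows up to 3 reads, a signal of 3.41 in hydroxyurea and 2.93 in untreated cells.

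Around members that stood alone the trough in H3T45p was narrow and followed that of H3. Around the 1814 members with no member next to them, the median H3T45p signal in hydroxyurea was 43.2 at the member, 141 and 147 in the windows 150 bp to the left and right, and 275 and 281 at 300 bp. For H3 in hydroxyurea the same medians were 43.5 at the member, 130 and 129 at 150 bp, and 262 at 300 bp on either side. In untreated cells H3T45p had 52.7 at the member, 159 and 157 at 150 bp and 299 at 300 bp on either side. H3 in untreated cells had 40.4 at the member, 139 and 140 at 150 bp, and 289 at 300 bp on either side. All 4 libraries were thus back near their nuclear medians within 300 bp. These windows were chosen for having no member beside them, so the narrow width is in part given by that choice. The 1844 members in longer runs are not in this profile. On the authors' scale H3T45p stood apart from H3 at the bottom of the trough in untreated cells, but not in hydroxyurea. The median log2 H3T45p over H3 of these single windows was -0.01 in hydroxyurea and 0.25 in untreated cells.

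**Figure D1:**
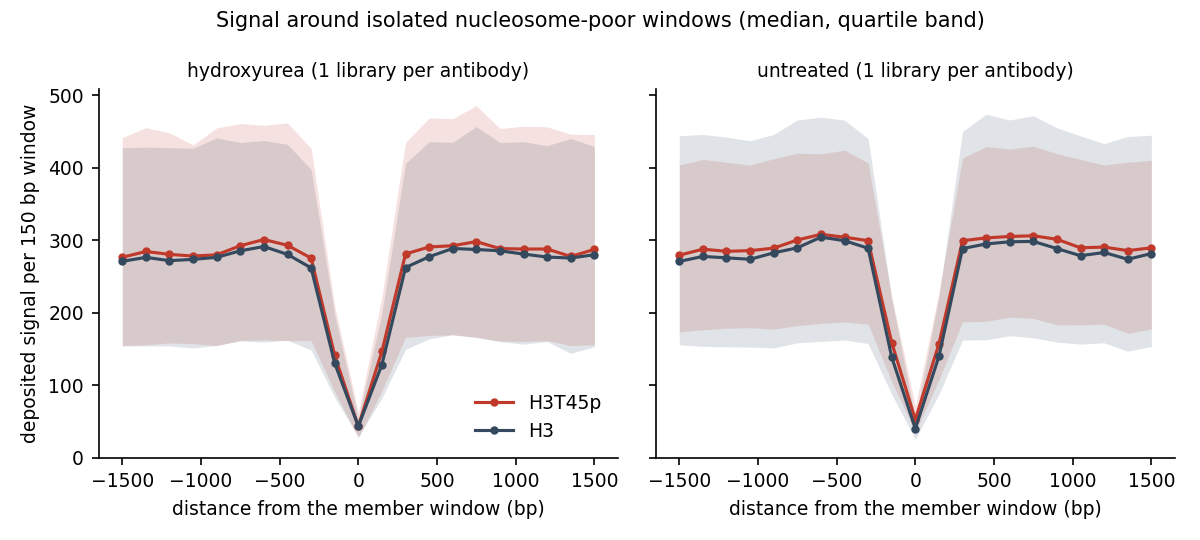
Median deposited signal of H3T45p and H3 (y axis) in 150 bp windows by distance in bp from 1814 isolated member windows (x axis), in hydroxyurea on the left and untreated cells on the right. Bands give the quartiles over windows, and each curve is 1 library. At the centre the curves meet in hydroxyurea (43.2 for H3T45p, 43.5 for H3) and part in untreated cells (52.7 for H3T45p, 40.4 for H3).

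Each member was also set against its own surroundings, taken as the windows within 1.5 kb on either side that were above 0 in the 4 libraries and not H3-poor. This measure does not depend on the factor per library, though it does on how wide a range of values a library holds. It could be had for 3482 members, and 176 had fewer than 5 such flanking windows. The median member held 13.0% of its flank's H3T45p and 12.8% of its flank's H3 in hydroxyurea. In untreated cells it held 15.9% of its flank's H3T45p and 11.7% of its flank's H3. The H3T45p percentage was the higher of the pair in 1607 members (46.2%) in hydroxyurea and in 2821 (81.0%) in untreated cells. In 1102 members (31.6%) the H3T45p percentage was higher in hydroxyurea than in untreated cells.

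Per unit of H3, the members' summed reads held more H3T45p than those of all eligible windows in both conditions, on the authors' scale. The ratio of summed H3T45p to summed H3 signal was 1.14 in hydroxyurea (95% Clopper-Pearson interval 1.13 to 1.15) and 1.39 in untreated cells (1.38 to 1.40). Over all eligible windows it was 1.03 in hydroxyurea and 0.906 in untreated cells. The 5124 windows at 25 to 50% of the H3 medians outside peaks gave 0.992 in hydroxyurea and 1.22 in untreated cells. The rule picked members for a low divisor and left out called peaks, so both ends of this ratio are shaped by the choice of members. For single members the ratio had a median of 0.971 in hydroxyurea, with quartiles of 0.628 and 1.5, and of 1.36 in untreated cells, with quartiles of 1.1 and 1.71. In hydroxyurea the summed ratio lies above 1 and the median member below it. The untreated values depend on the scale of the libraries. When the ranks of windows were matched between libraries, the median log2 ratio of members in untreated cells was 0.00. The summed ratio was not recomputed that way.

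The first comparison set H3T45p against H3 in hydroxyurea, window by window, on a log2 scale with 28.2 (10% of the nuclear median) added to both signals, which shrinks the ratio of low windows toward 0. The members' median was -0.02, beside 0.00 over all eligible windows and -0.07 in the windows at 25 to 50% of the H3 medians. Around that centre they spread to both sides. A log2 ratio of 0.5 or more was found in 646 members (17.7%), against 5.63% of all windows tested, and one of -0.5 or less in 407 members (11.1%), against 2.72%. The SD over members was 0.49 and that of the windows at 25 to 50% was 0.35. Among the 2391 members with 20 or more reads in every library the median was 0.06, with 505 at 0.5 or more and 136 at -0.5 or less. That minimum applies to the H3T45p reads too, so members with a low ratio drop out more readily by its construction. With a pseudocount of 50% of the nuclear median 96 members were at 0.5 or more and 0 at -0.5 or less. The counting interval of the ratio lay wholly above 1 in 816 members (22.3%), against 19.1% of all windows tested, and wholly below 1 in 656 (17.9%), against 15.2%. By that second measure, which needs more reads to pass, the members' shares were near the background. Members hold fewer reads than most eligible windows, so near shares at unequal depth do not show that members are like the background.

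In untreated cells the members' ratios lay to the upper side, on the authors' scale. The rule picked members for a low untreated H3, the divisor of this ratio, which favours that side by its construction. The median log2 ratio was 0.24, beside 0.00 over all eligible windows and 0.22 in the windows at 25 to 50%. The ratio was 0.5 or more in 639 members (17.5%), against 3.71% of all windows tested, and -0.5 or less in 10 (0.273%), against 5.81%. The counting interval lay wholly above 1 in 1164 members (31.8%), against 17.4%, and wholly below 1 in 31 (0.847%), against 25.8%. Members hold fewer reads than most eligible windows, so the interval shares are not compared at equal depth. They were not recomputed with ranks matched. The SD over members was 0.28, below that in hydroxyurea. The median depended on how the libraries were scaled. When the ranks of windows were matched between the libraries, so that each had the same spread of values, the median was 0.00, with 138 members at 0.5 or more and 89 at -0.5 or less. In hydroxyurea the same matching gave -0.04, with 622 and 445. The SD kept its order, at 0.49 in hydroxyurea and 0.26 in untreated cells.

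**Figure D2:**
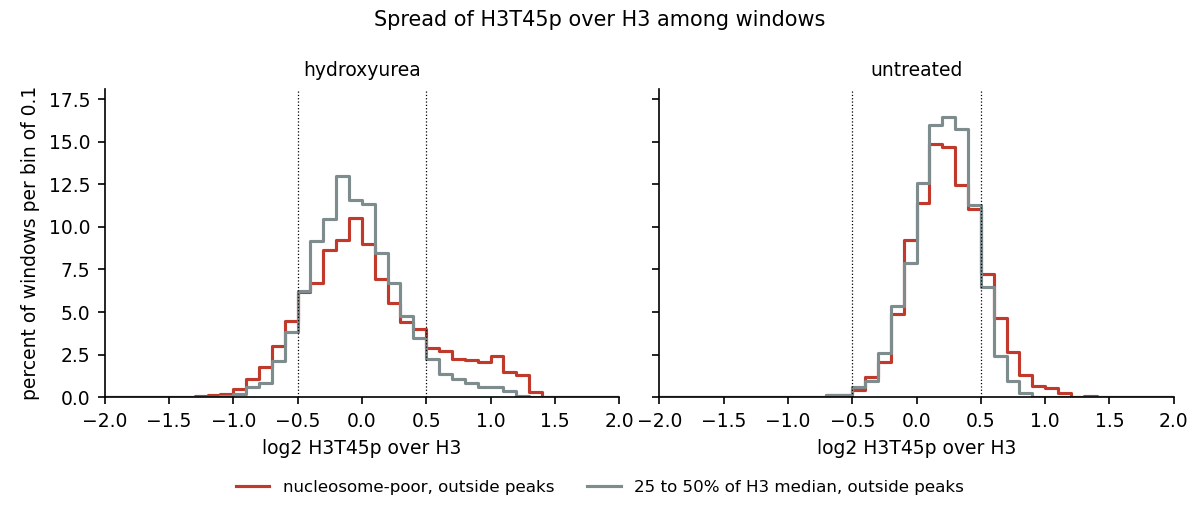
Percent of windows per bin of 0.1 (y axis) by log2 H3T45p over H3 (x axis) for the members and for the windows at 25 to 50% of the H3 medians outside peaks, in hydroxyurea on the left and untreated cells on the right; dotted lines mark 0.5 and -0.5. Members spread to both sides of 0 in hydroxyurea, with 646 past the upper line and 407 past the lower, and to the right in untreated cells, with 639 and 10 on the authors' scale (138 and 89 with ranks matched).

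Members that stood high in one condition were partly the same as in the other. Of the 646 members at 0.5 or more in hydroxyurea, 273 were also at 0.5 or more in untreated cells, 372 lay between the lines there and 1 was at -0.5 or less. Of the 407 at -0.5 or less in hydroxyurea, 43 were at 0.5 or more in untreated cells, 362 lay between and 2 were at -0.5 or less. A total of 2275 members lay between the lines in both conditions. These joint counts are on the authors' scale alone, and with ranks matched the untreated lower side held 89 members in place of 10. The same joint counts were not computed over all eligible windows, so the overlap cannot be called particular to members.

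H3T45p itself was lower in hydroxyurea than in untreated cells in most members, on the authors' scale. The median log2 of H3T45p in hydroxyurea over untreated cells was -0.17 in members, beside 0.02 over all eligible windows and -0.27 in the windows at 25 to 50%. It was 0.5 or more in 215 members (5.88%), against 9.12% of all windows tested, and -0.5 or less in 608 (16.6%), against 6.37%. The direction did not hold under every scaling: with ranks matched the median was 0.02, with 427 members at 0.5 or more and 171 at -0.5 or less. With libraries scaled to the same total of reads the split was 144 and 850, about a member median of -0.24, and the median of all eligible windows itself moved to -0.10.

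H3 was under the threshold in both conditions by the rule, so its difference between them is a description. The median log2 of H3 in hydroxyurea over untreated cells was 0.05, with 178 members at 0.5 or more (4.87%, against 4.37% of all windows tested) and 90 at -0.5 or less (2.46%, against 7.05%). The log2 ratio of H3T45p over H3 in hydroxyurea minus that in untreated cells had a median of -0.23, beside 0.05 over all eligible windows. It was 0.5 or more in 283 members (7.74%), against 11.7%, and -0.5 or less in 953 (26.1%), against 8.78%. With ranks matched the median difference was 0.00, with 570 members at 0.5 or more and 471 at -0.5 or less, and with the same total it was -0.32, with 186 and 1272. The comparison between conditions in the members therefore rests on the scale put on the libraries, while the spread of the ratio within hydroxyurea does not.

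Members were put into bands of their mean H3 level, at 0 to 5%, 5 to 10%, 10 to 15%, 15 to 20% and 20 to 25% of the nuclear median, which held 486, 720, 879, 1071 and 502 members. In hydroxyurea the median H3T45p signal was 5.69, 21.6, 35.3, 50.1 and 59.2, on a median H3 signal of 9.06, 22.7, 36.2, 49.8 and 61.6. H3T45p was thus below H3 in the lowest band and close to it in the others. In untreated cells the median H3T45p signal was 9.75, 28.3, 44.9, 63.4 and 77.0, on a median H3 signal of 6.89, 19.7, 33.5, 48.2 and 61.1, and so above H3 in every band on the authors' scale. The log2 medians were -0.08, -0.02, -0.02, 0.00 and -0.01 in hydroxyurea and 0.10, 0.24, 0.27, 0.26 and 0.25 in untreated cells. The pseudocount pulls the log2 values of the lowest band toward 0, in both conditions and in the difference between them, so no order over the bands is read from them. In hydroxyurea the share of members at 0.5 or more was 11.5%, 19.4%, 22.1%, 17.6% and 13.3% over the bands. The share at -0.5 or less was 4.73%, 12.4%, 15.5%, 11.2% and 7.77%. These shares rest on the same log2 values.

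Most members stood alone. They formed 2596 runs of adjacent windows, of which 1814 (69.9%) held 1 window, 593 held 2, 128 held 3, 38 held 4, 16 held 5 and 7 held 6. Neighbouring runs lay a median of 2.7 kb apart, with quartiles of 1.2 and 5.55 kb and a largest gap of 40.95 kb. Longer runs held less H3T45p, with a median signal of 25.03 in hydroxyurea and 36.1 in untreated cells in runs of 3 or more, beside 43.2 and 52.7 in single windows. H3 was lower there too, at 28.1 in hydroxyurea and 26.1 in untreated cells in runs of 3 or more, beside 43.5 and 40.4 in single windows. The median log2 ratio in runs of 3 or more was -0.08 in hydroxyurea and 0.19 in untreated cells.

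The 7 longest runs, of 900 bp each, showed both patterns side by side. On chromosome 3 from 168601 to 169500 H3T45p had a mean of 15.9 in hydroxyurea and 21.3 in untreated cells, with H3 at 20.5 in hydroxyurea and 21.7 in untreated cells. On chromosome 8 from 534001 to 534900 H3T45p was 17.1 in hydroxyurea and 21.5 in untreated cells, with H3 at 20.1 and 18.4. On chromosome 15 from 1004251 to 1005150 H3T45p was 15.2 in hydroxyurea and 26.0 in untreated cells, with H3 at 17.5 and 17.4. In these 3 runs and in that on chromosome 12 from 436651 to 437550, where H3T45p was 39.1 in hydroxyurea and 68.1 in untreated cells, the H3T45p mean was below the H3 mean in hydroxyurea. In the other 3 it was above. On chromosome 16 from 856051 to 856950 H3T45p was 44.6 and H3 16.01 in hydroxyurea, beside 26.8 and 27.2 in untreated cells. On chromosome 15 from 27451 to 28350 they were 35.7 and 17.7 in hydroxyurea, beside 27.6 and 31.2 in untreated cells. On chromosome 14 from 500551 to 501450 they were 59.2 and 33.2 in hydroxyurea, beside 67.3 and 43.0 in untreated cells. The runs on chromosome 16 and from 27451 on chromosome 15 had a ratio over 2 in hydroxyurea (2.78 and 2.02) and under 1 in untreated cells (0.984 and 0.886), without overlapping a peak.

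There were 1062 pairs of neighbouring members. In hydroxyurea both members of the pair were past 0.5 or -0.5 in 124 pairs, of which 102 had the same direction and 22 opposite directions. The same share was not computed for other windows. Neighbouring windows can share DNA fragments, so such pairs are not independent.

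Among the features of position compared here, contact with a called peak went with the widest separation of members. Peaks were called on the H3T45p libraries, so the peak lists and the H3T45p signal are not independent measures. The 281 members that touch a peak without overlapping it had a median log2 H3T45p over H3 of 0.73 in hydroxyurea and 0.40 in untreated cells. Among them 178 were at 0.5 or more in hydroxyurea and 2 at -0.5 or less. Their H3T45p signal had a median of 69.4 in hydroxyurea, beside 56.6 in untreated cells, and their H3 signal had 32.6 and 37.4. These members are the edges of the peaks, whose borders come from the authors' call. The next windows out did not share the high ratio. At 150 to 300 bp from a peak (167 members) the median was -0.13 in hydroxyurea and 0.20 in untreated cells, with 24 members at 0.5 or more and 34 at -0.5 or less in hydroxyurea.

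At 450 to 1500 bp from a peak the 389 members had medians of 0.00 in hydroxyurea and 0.23 in untreated cells. The 1592 members farther out but under 10 kb had -0.06 and 0.21, and the 1229 members at 10 kb or more had -0.05 and 0.24. Far from peaks the calls in hydroxyurea lay on both sides. Between 1500 bp and 10 kb 228 members (14.3%) were at 0.5 or more and 192 (12.1%) at -0.5 or less, and at 10 kb or more 148 (12.04%) and 137 (11.1%). In the windows at 25 to 50% of the H3 medians the shares at 0.5 or more were 6.02% and 4.10% at these distances. Their shares at -0.5 or less were 8.86% and 7.48%. Over all windows tested, at any distance, 5.63% were at 0.5 or more and 2.72% at -0.5 or less. H3T45p in hydroxyurea over untreated cells had a median of 0.17 in the touching members and between -0.22 and -0.17 at the other distances. The 173 windows at 25 to 50% of the H3 medians that touch a peak had a median ratio of 0.53 in hydroxyurea and 0.32 in untreated cells, so the difference by contact with a peak was present in that class as well.

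**Figure D3:**
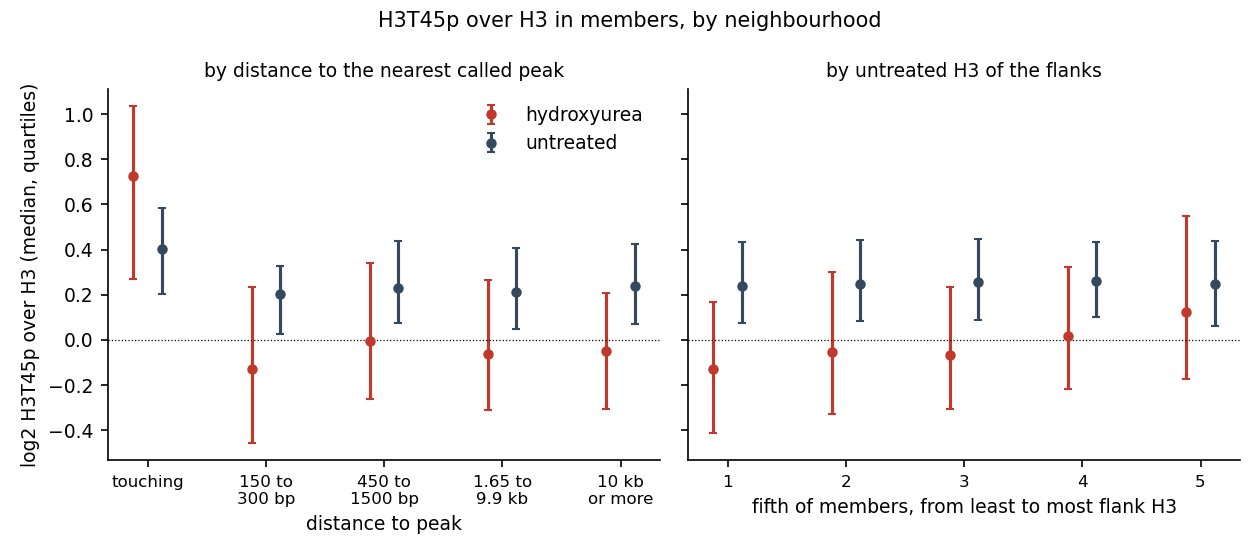
Median log2 H3T45p over H3 of members, with quartiles as bars (y axis), by distance to the nearest called peak on the left and by class of untreated H3 in the flanks on the right, from least to most, in hydroxyurea and untreated cells. Members touching a peak sit at 0.73 in hydroxyurea and 0.40 in untreated cells; across the flank classes the hydroxyurea medians run from -0.13 to 0.12 and the untreated ones stay between 0.24 and 0.26.

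The ratio in hydroxyurea also moved with the H3 of the surroundings, which the rule did not use. The 3482 members with a flank were put into 5 classes by the untreated H3 level of the flank, whose middle values were 189, 249, 298, 350 and 449. The median log2 ratio of the members was -0.13, -0.06, -0.07, 0.02 and 0.12 in hydroxyurea and 0.24, 0.25, 0.26, 0.26 and 0.25 in untreated cells. The count at 0.5 or more in hydroxyurea was 95 in the lowest class and 187 in the highest, and the count at -0.5 or less was 123 and 46. The flanks' own median ratio went the same way in hydroxyurea over a narrower range, -0.02 in the lowest class and 0.08 in the highest. In untreated cells the flanks' ratio was 0.19 in the lowest class and -0.16 in the highest, but the classes were cut on its divisor, so nothing is read from that order. The median of H3T45p in hydroxyurea over untreated cells was -0.25 in the lowest class and -0.08 in the highest.

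The members' difference in H3T45p between conditions went weakly with that in flank H3, at a rank (Spearman) correlation of 0.18 over 3482 members. Against the flank's own difference in H3T45p it was 0.35, and for the members' H3 against flank H3 it was 0.34. In 5 classes of the flank's log2 H3 in hydroxyurea over untreated cells, with middle values of -0.38, -0.20, -0.06, 0.08 and 0.29, the members' median log2 of H3T45p was -0.25, -0.24, -0.19, -0.18 and -0.05. Their median log2 of H3 was -0.08, 0.02, 0.04, 0.10 and 0.20. The ratio of H3T45p over H3 in hydroxyurea minus that in untreated cells stayed between -0.27 and -0.20 over those classes.

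Members made up 3.81% of eligible windows on chromosome 10 and 5.97% on chromosome 1, the lowest and highest shares. The untreated median ratio was above 0 on all 16 chromosomes, from 0.14 on chromosome 1 to 0.35 on chromosome 6, on the authors' scale (with ranks matched, the median over all members was 0.00). The hydroxyurea median was above 0 on 6 and below 0 on 10, from -0.12 on chromosome 3 to 0.09 on chromosome 6. Chromosome 6 held the fewest members, 59. On the same scale the median of H3T45p in hydroxyurea over untreated cells was below 0 on all 16 (0.02 over all members with ranks matched), from -0.22 on chromosome 15 to -0.05 on chromosome 5. Members 20 to 40 kb from an end had a median of -0.30 by that measure, beside -0.15 for eligible windows at that distance, and members 160 kb or more from an end had -0.16, beside 0.03.

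**Figure D4:**
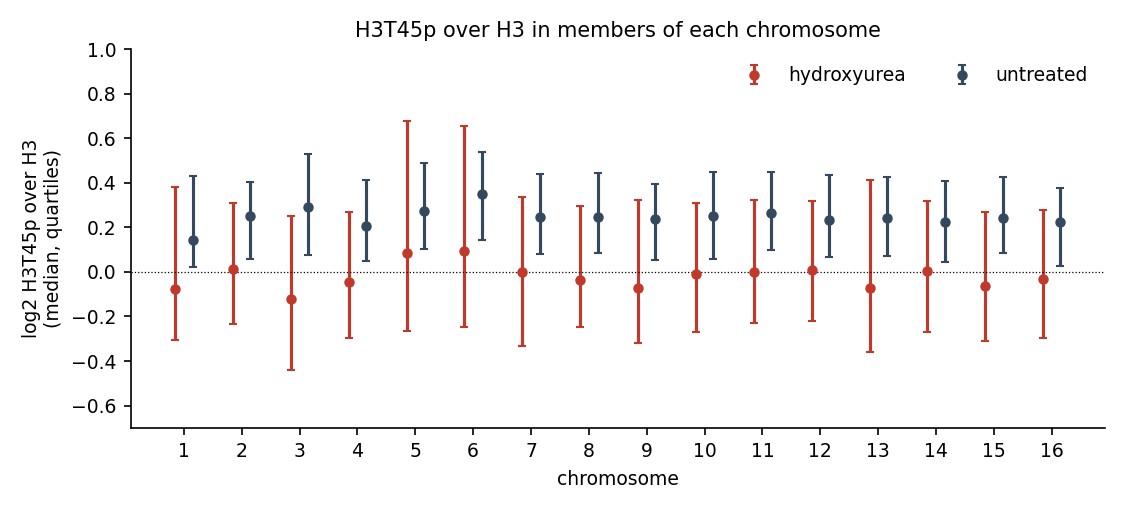
Median log2 H3T45p over H3 of the members of each of the 16 chromosomes (x axis), with quartiles as bars (y axis), in hydroxyurea and untreated cells, 1 library per antibody and condition. On the authors' scale the untreated medians lie above 0 on all 16 chromosomes (over all members 0.00 with ranks matched) and the hydroxyurea medians on 6.

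Next to windows at 0 in any library, the members' ratios lay closer to 0 in untreated cells. The 313 such members had a median of -0.06 in hydroxyurea and 0.06 in untreated cells. The other 3345 had -0.02 in hydroxyurea and 0.25 in untreated cells. Their median H3T45p signal was also lower, at 21.6 in hydroxyurea and 25.4 in untreated cells, beside 39.8 and 49.7 in the other members.

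Some members had a high ratio of H3T45p to H3 without being in a called peak. On the plain ratio with no pseudocount, 568 members (15.5%) had 2 or more times as much H3T45p as H3 in hydroxyurea, against 2.99% of all windows tested, and 569 (15.6%) had no more than 50% as much, against 1.09%. In untreated cells 481 members (13.1%) were at 2 or more, against 1.2%, and 63 (1.72%) at no more than 50%, against 0.361%. No read minimum was set here. In hydroxyurea the members' H3 signal went down to 0.906, and the 569 had a median H3T45p signal of 9.10. Members were chosen for a low divisor and hold fewer reads than most windows tested, so these shares are not compared at equal depth. A total of 203 members were at 2 or more in both conditions, which is 35.7% of those in hydroxyurea and 42.2% of those in untreated cells. The same overlap was not computed over all windows tested. The 568 had a median H3T45p signal of 77.4 in hydroxyurea, between 4.55 and 185, on a median H3 of 27.2, and 171 of them (30.1%) touched a peak.

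The 448 H3-poor windows in called peaks lay at higher levels of H3T45p for similar H3. Their median H3T45p signal was 188 in hydroxyurea, between 64.9 and 1229, and 92.1 in untreated cells, on a median H3 of 31.7 in hydroxyurea and 42.3 in untreated cells. Their median ratio in hydroxyurea was 6.28 and their lowest 3.12. Among all H3-poor windows with a ratio of 2 or more in hydroxyurea, none of the 118 with an H3T45p signal under 50 was in a peak. Of 162 with a signal of 75 to 100, 30 were in a peak, as were 102 (41.1%) of 248 at 100 to 150, 107 (82.3%) of 130 at 150 to 200, and all 205 at 200 or more. Peaks were called on the H3T45p libraries, so a rise of this share with the H3T45p signal is given by the call. The windows counted start at a ratio of 2 and those in peaks at 3.12, so signal and ratio were not separated. Between signals of 50 and 200 both kinds of window were found.

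**Figure D5:**
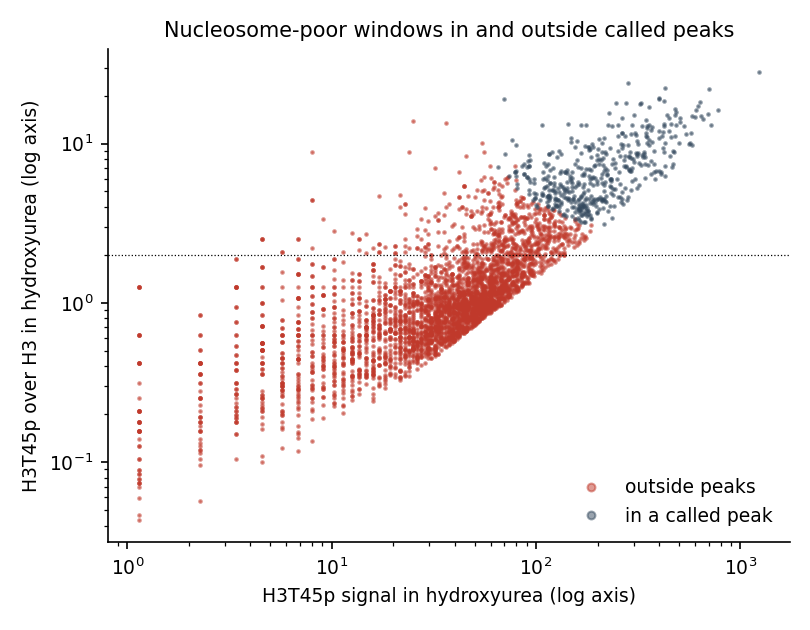
Ratio of H3T45p over H3 (y axis, log scale) against the H3T45p signal (x axis, log scale) in hydroxyurea for H3-poor windows outside and in called peaks, with a dotted line at a ratio of 2. The ratio holds the x value as its numerator, and the 46 members at 0 are not drawn; windows in peaks start at a signal of 64.9 and a ratio of 3.12, and 568 members lie on or above the line.

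Among the highest members in hydroxyurea, the window on chromosome 12 from 125251 to 125400 had an H3T45p signal of 78.5 and an H3 signal of 10.9 in hydroxyurea, beside 17.6 and 5.91 in untreated cells. Its log2 ratio in hydroxyurea was 1.45, the highest among the 2724 members with 50 or more reads in that pair, and its plain ratio was 7.22 (counting interval 3.88 to 14.6). It lies 16650 bp from the nearest peak, and its H3T45p was 4.47 times as high in hydroxyurea as in untreated cells (2.63 to 7.99). On chromosome 1 from 141901 to 142050, a window that touches a peak, H3T45p was 79.7 in hydroxyurea and 15.6 in untreated cells, a log2 difference of 1.30, the largest among the 2750 members with 50 or more reads in the H3T45p pair. Its H3 signal was 13.6 in hydroxyurea, beside 5.91 in untreated cells. The next 3 in hydroxyurea had log2 ratios of 1.34 on chromosome 15 from 113851, 1.32 on chromosome 14 from 355501 and 1.32 on chromosome 5 from 268651. Their H3T45p signals in hydroxyurea were 72.8, 122 and 113, on H3 signals of 11.8, 31.7 and 28.1. The windows on chromosomes 14 and 5, with more H3T45p and more H3 than the other 3 of the 5 highest, also touch a peak.

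At the other extreme, H3T45p in hydroxyurea was nearly missing from some windows that had H3. On chromosome 13 from 837601 to 837750 H3T45p was 6.83 (6 reads) and H3 58.0 (64 reads) in hydroxyurea, a plain ratio of 0.118 (0.0417 to 0.271), while untreated cells had 32.2 for H3T45p and 22.6 for H3. On chromosome 16 from 771301 H3T45p was 7.97 and H3 58.9 in hydroxyurea, beside 30.2 and 29.5 in untreated cells. On chromosome 7 from 318901 they were 4.55 and 45.3 in hydroxyurea, beside 24.4 and 19.7 in untreated cells. In all 3 windows H3 was higher and H3T45p lower in hydroxyurea than in untreated cells. They were picked for a low ratio in hydroxyurea, a choice that favours this order, so nothing is read from it.

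In untreated cells the highest of the 2775 members with 50 or more reads was on chromosome 12 from 673951 to 674100, with H3T45p at 105 and H3 at 23.6, a log2 ratio of 1.36. In hydroxyurea it had 94.4 and 35.3, a log2 ratio of 0.95. The window on chromosome 7 from 534901 was high in both conditions, with H3T45p at 121 and H3 at 31.7 in hydroxyurea and 90.7 and 19.7 in untreated cells, a log2 ratio of 1.31 in each. So was that on chromosome 4 from 1352401, with log2 ratios of 1.29 in hydroxyurea and 1.21 in untreated cells, and neither touches a peak, each lying 3150 bp from one. The first window of the long run on chromosome 14, from 500551, had a log2 ratio of 0.86 in hydroxyurea and 1.32 in untreated cells, on 15 and 5 reads of H3. The window on chromosome 16 from 732151, which touches a peak, had 0.96 and 1.18.

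The lowest members in untreated cells stayed closer to 0, with log2 ratios of -0.72 on chromosome 1 from 205651, -0.66 on chromosome 15 from 709201 and -0.66 on chromosome 15 from 27451. In hydroxyurea the same windows had -0.21, 1.02 and 0.45. The largest differences of H3T45p between the conditions, after the windows on chromosomes 1 and 12 above, were log2 1.18 on chromosome 14 from 519001 (175 in hydroxyurea and 61.4 in untreated cells), 1.16 on chromosome 13 from 287551 (83.1 and 21.5) and 1.15 on chromosome 5 from 140401 (99.0 and 29.3). The window on chromosome 5 touches a peak, and that on chromosome 14 lies 15450 bp from one. The lowest differences were -1.17 on chromosome 10 from 31351 (13.7 in hydroxyurea and 66.3 in untreated cells), -1.17 on chromosome 12 from 861601 (15.9 and 71.2) and -1.16 on chromosome 12 from 762601 (21.6 and 82.9). In those 3 windows H3 was between 39.0 and 44.4 in hydroxyurea and between 42.3 and 64.0 in untreated cells. Each of these was picked from a large number of members for its extreme value, and the counting intervals do not allow for that choice.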

How the data were processed

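The authors deposited, for each of the 4 libraries, a normalised signal in windows of 150 bp, and for each H3T45p library a peak list with positions only. The submitters' processing notes list BWA 0.5.9-r16 and DESeq, with no role or order. The build is not named, and the peak caller was not given in the sources used here. Within each library 100% of signal values were whole multiples of 1 read's value, to within 0.001 read, so reads were recovered as signal divided by that value, and depth is given as recovered reads in windows. No count model was run, because 1 library per group leaves no residual degrees of freedom.

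Thresholds were applied in whole reads. Log2 ratios had a pseudocount of 10% of the mean nuclear median (28.2) added to both signals and were counted at 0.5 or more and -0.5 or less, beside the same over all 74246 eligible windows. Ratios of reads have exact binomial (Clopper-Pearson) intervals at 95%. These and the floor of 3 reads for a count of 0 cover counting error only, since reads are not independent molecules. Flanks were the windows within 10 windows of a member, with 5 or more needed. Named windows are, among members with 50 or more reads in the pair compared, the 5 highest and 3 lowest in each of 3 comparisons, plus the longest runs and the windows on either side of the H3 threshold. That gave 22 windows, 2 of them in more than 1 list. The members, windows and alternatives were chosen with earlier results of these data known. The computation used Python 3.11.15, numpy 2.4.6, pandas 2.3.3 and scipy 1.17.1, with figures from matplotlib 3.10.9, and was tested on simulated data. Alternatives covered the H3 threshold, distance from ends, neighbourhood, read minimum, chromosome 12, pseudocount, scaling and flanks. Genes and sequences were not assigned, since no genome of the files' build was used here.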

Additional observations from a re-analysis of the deposited data

Results flagged for a closer look

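The window on chromosome 15 from 709201 to 709350 departed from H3 in opposite directions in the conditions. In hydroxyurea its log2 H3T45p over H3 was 1.02, with an H3T45p signal of 72.8 and an H3 signal of 21.7. In untreated cells the log2 ratio was -0.66, with an H3T45p signal of 26.3 and an H3 signal of 58.1. On the authors' scale it was the 1 member at 0.5 or more in hydroxyurea and at -0.5 or less in untreated cells. It lies 30000 bp from the nearest peak. It was among the 176 members with fewer than 5 usable flanking windows, so it was not set against its surroundings. With 1 library per group the difference was not tested.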

How the results depend on the processing

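No paired analysis was possible because both hydroxyurea libraries are numbered 1 and both untreated libraries 2, so the conditions share no number. With 1 library per group, none could be left out. Of the summary values recomputed under each alternative, 80 stayed inside an interval around the reported value or within 1.5 times the reported count. For medians that interval reflects the spread over member windows, and for the percent of runs the number of runs. It is not a counting error of reads. Another 84 values moved further, as listed here, and no named window's value changed sign. Among the medians, that of the hydroxyurea ratio changed sign with 20 or more reads in every library, and that of H3T45p in hydroxyurea over untreated changed sign with ranks matched. None moved that far when members within 40 kb of an end or on chromosome 12 were left out. Apart from what a setting does by its construction, the cause of a shift was not tested.

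With an H3 threshold of 15% there were 1702 members, 76.6% of their runs held 1 window, and they had 7.0% of their flank's H3T45p in hydroxyurea and 9.22% in untreated cells. H3T45p over H3 was 0.5 or more in 313 and -0.5 or less in 165 in hydroxyurea, and in 281 and 1 in untreated cells, where the median was 0.20. Hydroxyurea over untreated had medians of -0.13 for H3T45p (102 up, 187 down), 0.066 for H3 and -0.19 for their ratio. With a threshold of 35% there were 6019 members, 62.7% of runs held 1 window, and the flank percentages were 18.4 in hydroxyurea and 22.4 in untreated cells. The hydroxyurea ratio had a median of -0.040 with 707 at -0.5 or less, and the untreated ratio had 982 at 0.5 or more and 18 at -0.5 or less. Hydroxyurea over untreated had medians of -0.21 for H3T45p (1174 down) and -0.26 for the ratio.

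Without members within 300 bp of a peak the medians were -0.048 for the hydroxyurea ratio, -0.20 for H3T45p in hydroxyurea over untreated (139 up) and -0.26 for the difference of ratios. Without members next to a window at 0 the untreated ratio had a median of 0.25 with 4 at -0.5 or less, and 72.3% of runs held 1 window. With 20 or more reads in every library 2391 members were left, 85.1% of runs held 1 window, and the flank percentages were 16.95 in hydroxyurea and 20.1 in untreated cells. The ratio then had a median of 0.059 in hydroxyurea (136 at -0.5 or less) and 0.28 in untreated cells. The minimum covers H3T45p reads, so it removes low ratios more readily by its construction. Hydroxyurea over untreated had -0.15 for H3T45p (379 down), 0.013 for H3 and -0.18 for the ratio.

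A pseudocount of 2% gave 935 members at -0.5 or less in hydroxyurea. In untreated cells it gave a median of 0.38, with 1388 at 0.5 or more and 77 at -0.5 or less. Hydroxyurea over untreated then had -0.29 for H3T45p (388 up, 1299 down), 0.085 for H3 and -0.37 for the ratio. A pseudocount of 50% gave a median of -0.0069 in hydroxyurea (96 up, 0 down) and 0.086 in untreated cells (10 up, 0 down). Hydroxyurea over untreated had -0.058 for H3T45p (5 up, 0 down), 0.017 for H3 and -0.080 for the ratio. Under it 16 values of named windows came under 0.5 in size.

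Scaling to the same median gave -0.043 in hydroxyurea and 0.22 in untreated cells. Scaling to the same total gave -0.045 in hydroxyurea and 0.32 in untreated cells (965 up, 5 down), and -0.24 for H3T45p, 0.075 for H3 and -0.32 for the ratio, hydroxyurea over untreated. It moved the median of all eligible windows to 0.12 for the untreated ratio and to -0.12 for the difference of ratios. Matching ranks, an alternative chosen after seeing the data, gave 0.00 for the untreated ratio (138 up, 89 down), 0.023 for H3T45p (427 up, 171 down), 0.029 for H3 and -0.00019 for the ratio, hydroxyurea over untreated. Flanks of all windows above 0 gave 14.9% in hydroxyurea and 18.1% in untreated cells, and flanks within 4 windows gave 14.5% and 17.3%. Depth limits single members most, since their medians are 34 to 49 reads.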
